A study of Homo sapiens with 6 samples.

Results

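The genes described here run the last part of the cell cycle: the cyclins and kinases that start mitosis, the spindle checkpoint, the kinetochore, the mitotic kinesins and spindle proteins, and the machinery that separates chromatids and divides the cell. They were chosen by name for their roles, as a list of 53 genes drawn up with earlier results of these data known. Of these, 52 lay on a probe set annotated to that gene alone and were measured, among 18377 genes in all. Each of the 52 had 1 such probe set. CENPA, the histone variant that marks the centromere, lay on a probe set shared with another gene and was not analysed here.

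The cells were TF-1, an established human erythroleukaemia line that grows only when a cytokine is supplied. The control cells carried the pEGFP vector (3 arrays, numbered 1 to 3) and the others carried human PRL-3, the tyrosine phosphatase encoded by PTP4A3 (3 arrays, numbered 4 to 6). All were kept in RPMI with fetal bovine serum and human interleukin-3, and total RNA of each was hybridised to a whole-transcript expression array. The series asks what PRL-3 does in leukaemia, and the labels do not say whether either line was a clone or a pool, nor at what time after transfection RNA was taken.

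When a cell enters mitosis, CDK1 bound to cyclin B phosphorylates a large set of proteins, the chromosomes condense and the spindle forms. Kinetochores, the protein plates on the centromeres, catch spindle microtubules, and the checkpoint holds the cell until every kinetochore is attached. The anaphase-promoting complex with its activator CDC20 then marks securin and cyclin B for destruction, and separase cuts the cohesin that joins the sister chromatids. Most of the genes for this machinery are transcribed in G2 and M phase and kept silent earlier, so their RNA is also known as a mark of proliferating cells. In RNA of a whole culture, a larger share of cells in G2 and M phase and more RNA per such cell cannot be told apart.

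The deposited intensities had array medians between 89.8 and 92.9. Levels below are log2 intensity with the SD over 3 arrays, differences are PRL-3 minus control on the log2 scale with limma's standard error, and adjusted p-values are limma's, over all 18377 genes, with a threshold of 0.05. PTP4A3 read 7.92, 8.03 and 7.97 in the control arrays and 10.81, 10.93 and 10.79 in the PRL-3 arrays. The difference of 2.87 ± 0.072 (adjusted p = 2.24e-06, limma) goes with the labels. Over the 20 ways to split the 6 arrays, the exact permutation test (two-sided) had p = 0.1, its lowest possible value. Of 9 lymphocyte markers and 10 fibroblast and epithelial markers that should be absent, 0 passed the test in either direction, and no array read above 7.28 for the former or 7.37 for the latter. The array means of these lists, set against the control mean, ran from -0.07 to 0.08 and from -0.05 to 0.07. Of 10 markers of the TF-1 type, KIT alone passed, with 7.74, 7.81 and 7.55 in control and 8.80, 8.70 and 8.64 with PRL-3. Over the 10 the median difference was -0.09, 7 were below 0 (lowest -0.57), and 3 were higher and 3 lower at an unadjusted p under 0.05. Separate cultures for the arrays of a group are not stated, so each p-value reflects array-to-array spread alone, and that spread may be technical.

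Many promoters of these genes hold short elements known to set the timing of mitosis genes, and 8 of the promoters are shown. They are those of the 4 genes that passed the test and 4 others picked as examples that hold both elements described next. The CHR, or cell cycle genes homology region, is bound by the DREAM and MuvB complexes, which repress in resting cells and, with B-MYB and FOXM1, activate in G2 and M phase. The CCAAT box, usually present in several copies, is bound by the activator NF-Y. Each line below holds the 170 bases before the annotated start, read 5′ to 3′ on the strand of the gene, from RefSeq on GRCh38.p14. Capitals mark the CHR letters, searched as TTTGAA or as TTCGAA on both strands, and the CCAAT box, searched as CCAAT on both strands. The first 4 genes passed the test and the last 4 did not.
CDK1: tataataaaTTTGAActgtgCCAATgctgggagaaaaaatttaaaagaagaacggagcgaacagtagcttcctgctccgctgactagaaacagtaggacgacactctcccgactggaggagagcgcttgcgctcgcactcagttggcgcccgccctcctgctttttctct
NEK2: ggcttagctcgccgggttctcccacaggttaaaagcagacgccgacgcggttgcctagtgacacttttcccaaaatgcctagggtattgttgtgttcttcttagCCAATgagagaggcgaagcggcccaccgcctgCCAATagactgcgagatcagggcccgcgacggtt
PTTG1: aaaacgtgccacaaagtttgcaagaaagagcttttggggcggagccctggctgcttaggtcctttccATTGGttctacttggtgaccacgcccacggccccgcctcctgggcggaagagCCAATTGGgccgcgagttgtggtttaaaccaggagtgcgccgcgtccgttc
KIF20A: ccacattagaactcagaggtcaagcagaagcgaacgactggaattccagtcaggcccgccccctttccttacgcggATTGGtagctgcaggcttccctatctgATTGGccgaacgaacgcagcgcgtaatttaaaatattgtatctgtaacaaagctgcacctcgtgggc
PLK1: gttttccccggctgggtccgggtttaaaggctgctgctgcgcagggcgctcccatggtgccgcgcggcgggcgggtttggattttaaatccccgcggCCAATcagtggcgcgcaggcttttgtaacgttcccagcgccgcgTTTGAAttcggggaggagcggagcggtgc
CDC20: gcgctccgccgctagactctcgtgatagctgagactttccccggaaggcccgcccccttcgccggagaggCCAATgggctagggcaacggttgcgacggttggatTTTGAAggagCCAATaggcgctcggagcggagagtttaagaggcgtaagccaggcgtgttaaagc
CCNB2: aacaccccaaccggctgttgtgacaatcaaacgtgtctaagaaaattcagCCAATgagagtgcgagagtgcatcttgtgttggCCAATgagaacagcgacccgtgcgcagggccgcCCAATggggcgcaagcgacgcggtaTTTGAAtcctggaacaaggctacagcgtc
HMMR: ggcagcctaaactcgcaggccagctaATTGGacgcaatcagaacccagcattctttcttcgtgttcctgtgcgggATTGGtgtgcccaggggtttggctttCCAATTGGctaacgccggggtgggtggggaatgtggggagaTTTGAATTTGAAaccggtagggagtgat

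These stretches lie at chr10:60778161-60778330 (plus strand) for CDK1, chr1:211675622-211675791 (minus strand) for NEK2, chr5:160421685-160421854 (plus strand) for PTTG1, chr5:138178942-138179111 (plus strand) for KIF20A. The others lie at chr16:23678719-23678888 (plus strand) for PLK1, chr1:43358811-43358980 (plus strand) for CDC20, chr15:59104976-59105145 (plus strand) for CCNB2 and chr5:163460462-163460631 (plus strand) for HMMR. In PLK1 and CCNB2 a CHR match lay at -29 (counted from the start), with CCAAT boxes upstream of it at -73 in PLK1 and at -54, -87 and -120 in CCNB2. HMMR held a tandem pair of CHR matches at -28 and -22. CDC20 had a match at -65, between CCAAT boxes at -100 and -55. CDK1 had a single CHR match at -161 from the start used here, next to a CCAAT box at -150. NEK2, PTTG1 and KIF20A held CCAAT boxes and no CHR letters in these stretches, which says only that these letters are not there. In PTTG1 and HMMR a CCAAT box overlapped the same letters on the other strand, so 1 stretch was counted as a match on each strand.

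A window of 300 bases (250 before to 50 after the start, the most upstream start where a gene had several) was found for 46 of the 52 genes, and AURKA, BUB3, FOXM1, TPX2, TTK and UBE2C had none. The CHR letters were in 32 of 46 windows (69.6%), against 13.4% of 14210 windows of all genes tested and 16.4% of all 35116 windows of the table. CCAAT letters were in 34 (73.9%), against 36.3% of the windows of genes tested. Both were in 26 (56.5%), against 5.55%. Neither was in 6 of the 46 windows, against 7935 of the 14210. Counting only CHR matches from 100 bases before the start onward, the share was 63% against 5.4%. The median position was -23 for the CHR matches and -74 for the CCAAT matches. Among 70 windows of other mitosis genes, 39 held CHR letters (55.7%), 40 CCAAT letters (57.1%) and 27 both (38.6%). Among 44 windows of S phase genes, 3 held CHR letters (6.82%), 22 CCAAT letters (50%) and 2 both (4.55%). The median difference was 0.16 in the 32 genes with CHR letters and 0.24 in the 14 without, and 1 of the 4 genes that passed the test was among the 32. These are matches of the searched letters alone. No other form of either element was searched, and binding was not measured.

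**Figure D1:**
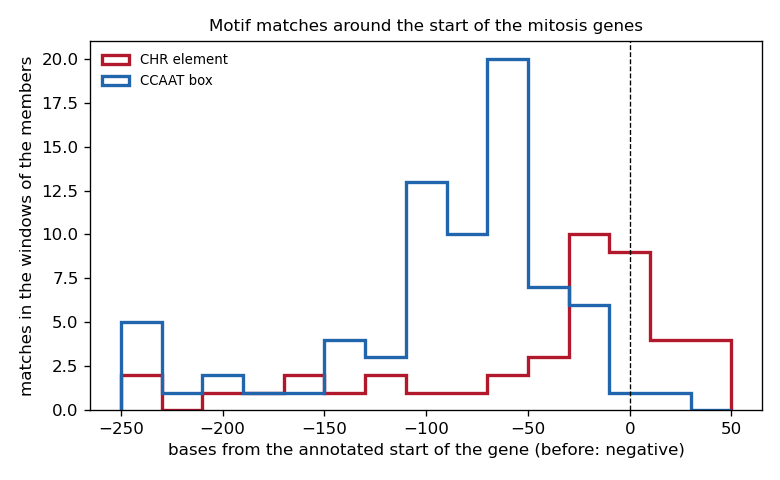
Number of matches of the CHR element (red) and of the CCAAT box (blue) in 20-base steps along the 300-base windows of the 46 mitosis genes with a window; the horizontal axis is the distance in bases from the annotated start and the dashed line is the start. CCAAT matches (75 in all, median at -74) lie mainly before the CHR matches (43 in all, median at -23).

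With PRL-3, 4 of the 52 mitosis genes rose and 0 fell: PTTG1 (1.94-fold), NEK2 (1.74-fold), CDK1 (1.43-fold) and KIF20A (1.23-fold). This is 7.69% of the members, against 4.58% of all genes that passed as higher and 3.11% that passed as lower. The other 48 did not pass. In 47 of the 52 the difference was above 0, and the 5 below 0 were FOXM1, ASPM, KIF15, BUB1B and CDC25B. The median difference was 0.18, where the median over all genes was -0.015 and 45.1% of all genes were above 0. In 20 members (38.5%) every PRL-3 array read above every control array, against 12.1% of all genes. In 0 members did every PRL-3 array read below every control array, against 12.2% of all genes. At an unadjusted p under 0.05, limma had 21 members higher (40.4%) and 0 lower, against 10.6% of all genes higher.

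Per array, the mean of the 52 genes relative to the control mean was -0.04, 0.02 and 0.02 in the control arrays and 0.24, 0.16 and 0.24 in the PRL-3 arrays. All 3 PRL-3 means lay above all 3 control means. The count of 4 depended on single arrays: it was 2 without control 2, without PRL-3 4 or without PRL-3 6, 3 without control 1, 7 without control 3 and 9 without PRL-3 5. The count over all genes moved as well, from 842 higher to 388 without control 2, 405 without PRL-3 4 and 431 without PRL-3 6. It was 571 without control 1, 791 without control 3 and 792 without PRL-3 5. For the members, counts are those of the same fits. CDK1 and NEK2 were the members that passed in all 6 of these fits. An unequal-variance test on each gene's own 6 values passed 0 members after adjustment (11 at an unadjusted p under 0.05), and over all genes it passed 7 as higher and 4 as lower.

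**Figure D2:**
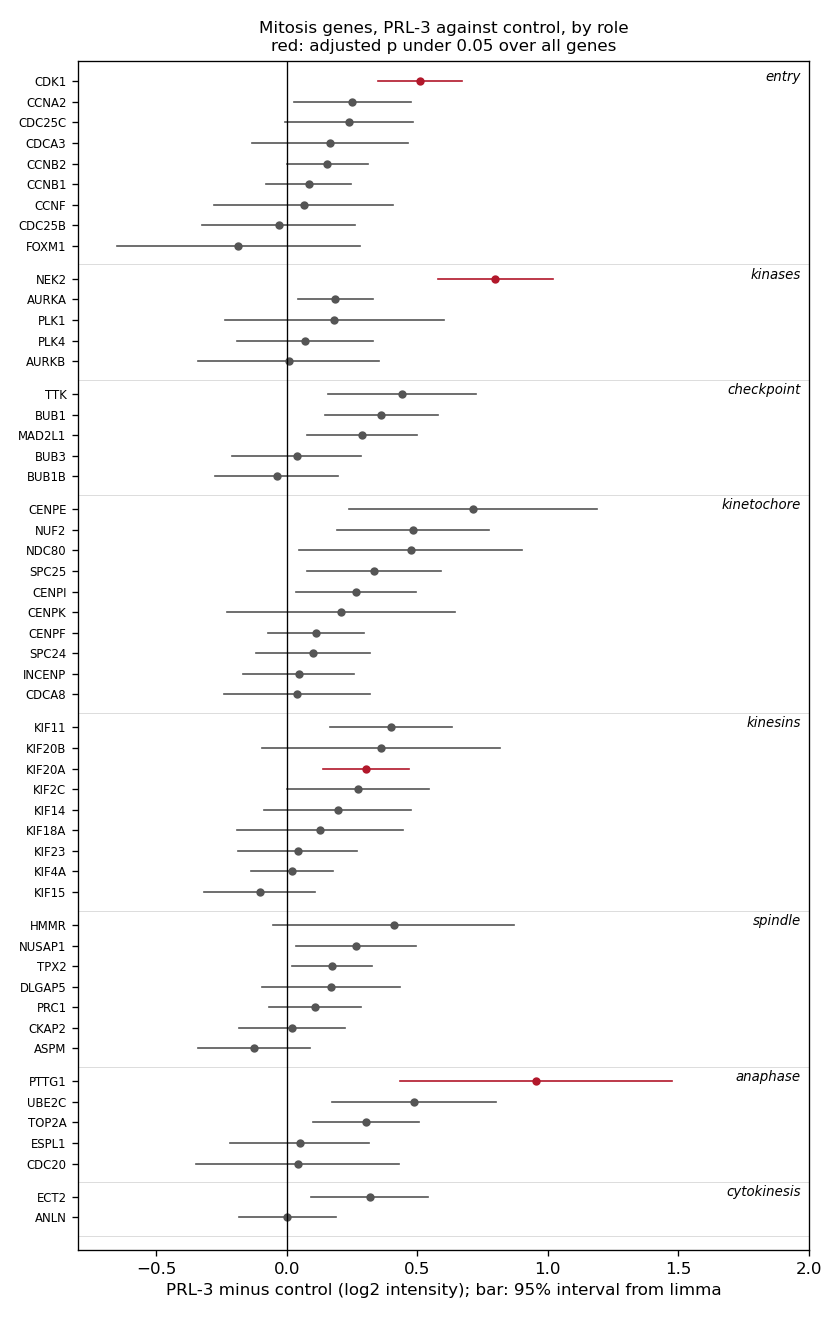
Difference between PRL-3 and control arrays (log2 intensity, points) with limma's 95% interval (bars) for the 52 mitosis genes, grouped by role and ordered by size within each; red marks the 4 genes with adjusted p under 0.05 over all genes. Most points lie to the right of 0 (47 of 52), and the differences run from -0.19 (FOXM1) to 0.95 (PTTG1).

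Among the 9 genes of mitotic entry, CDK1 rose, and the cyclins that bind it did not pass. CDK1, the kinase that starts mitosis, read 7.59, 7.58 and 7.60 in the control arrays and 8.03, 8.07 and 8.20 in the PRL-3 arrays. The control arrays were close together (SD 0.012), and every PRL-3 array was above them. The difference was 0.51 ± 0.070 (adjusted p = 0.00454, limma), and the adjusted p stayed between 0.00994 and 0.032 with each array left out in turn.

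Cyclin B1 (CCNB1), its main partner, read 9.85, 9.93 and 9.84 in control and 9.89, 9.94 and 10.04 with PRL-3. These groups overlapped, with a difference of 0.08 (95% interval -0.079 to 0.25, adjusted p = 0.605, limma). Cyclin B2 (CCNB2) read 10.37, 10.33 and 10.23 in control and 10.47, 10.46 and 10.46 with PRL-3, a small separation without overlap (0.15 ± 0.067, adjusted p = 0.251, limma). Cyclin A2 (CCNA2), which acts from S phase to early mitosis, read 9.21, 9.39 and 9.57 in control and 9.68, 9.59 and 9.65 with PRL-3. Its groups did not overlap either, but control 3 almost reached the lowest PRL-3 array (0.25 ± 0.098, adjusted p = 0.192, limma). CDC25C, the phosphatase that switches CDK1 on, read 6.88, 6.91 and 6.84 in control and 6.95, 7.35 and 7.04 with PRL-3. Its PRL-3 values ranged widely, with array 5 highest (difference 0.24, adjusted p = 0.264, limma). All its values lay below 7.37, which markers that should be absent reached, so they may be near background.

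FOXM1, the transcription factor that activates many of these genes in G2, read 9.06, 8.83 and 8.34 in control and 8.39, 8.91 and 8.37 with PRL-3. The 2 groups covered nearly the same range, and the difference was -0.19 ± 0.203 (95% interval -0.65 to 0.28, adjusted p = 0.705, limma). It was the lowest difference of all 52 genes with all arrays in, and ran from -0.39 without control 3 to -0.027 without control 1. The other 3 genes of this role (CCNF, CDC25B and CDCA3) had overlapping groups and none passed.

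Of the 5 mitotic kinases, NEK2 rose. NEK2, a centrosomal kinase that parts the centrosomes before the spindle forms, read 7.35, 7.32 and 7.61 in control and 8.17, 8.17 and 8.33 with PRL-3. The lowest PRL-3 array stood well above the highest control array. Control 1 and control 2 lay within the range of the markers that should be absent (up to 7.37), so the control level may be near background. The difference was 0.80 ± 0.096 (adjusted p = 0.0028, limma; 0.00139 to 0.0214 with each array left out), the lowest adjusted p among the members.

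The aurora and polo kinases did not pass. AURKA, which builds the spindle poles, read 8.90, 8.94 and 8.93 in control and 9.12, 9.07 and 9.14 with PRL-3. The separation was narrow but without overlap, since both groups varied little (0.19 ± 0.063, adjusted p = 0.131, limma). PLK1, which acts from mitotic entry to cytokinesis, read 9.67, 9.29 and 9.03 in control and 9.42, 9.83 and 9.29 with PRL-3. Control 1 lay above PRL-3 arrays 4 and 6, and the difference of 0.18 had a 95% interval of -0.24 to 0.60 (adjusted p = 0.676, limma). AURKB, the kinase that corrects wrong attachments, read 9.30, 9.19 and 8.75 in control and 9.10, 9.26 and 8.90 with PRL-3. Its groups overlapped fully and its difference was 0.0068 (95% interval -0.34 to 0.35, adjusted p = 0.989, limma). The remaining kinase, PLK4, which starts centriole copying, also overlapped and did not pass.

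**Figure D3:**
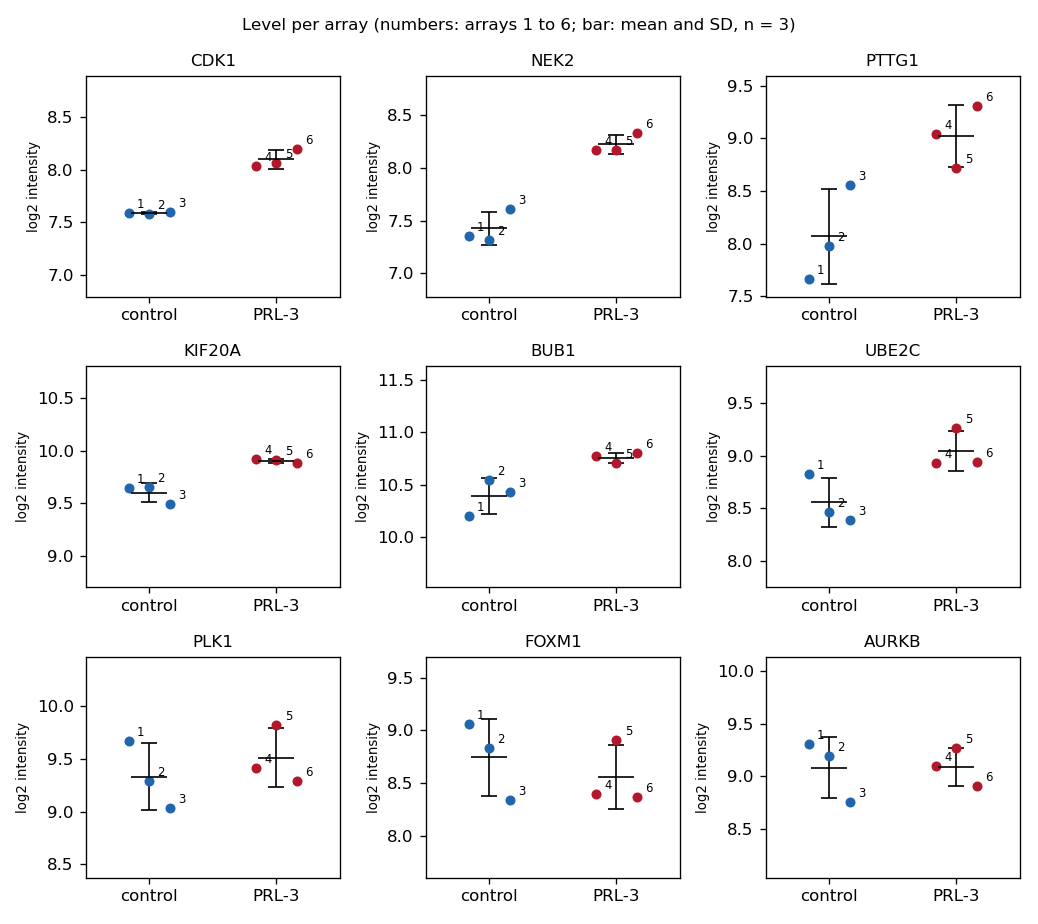
Level (log2 intensity, vertical axis) of 9 mitosis genes in each array, control in blue and PRL-3 in red, with the array number beside each point and the mean and SD (n = 3) as bars; all panels span the same range of log2 units. CDK1, NEK2, PTTG1, KIF20A, BUB1 and UBE2C show no overlap between groups, whereas PLK1, FOXM1 and AURKB overlap and have control 1 and PRL-3 5 as the highest arrays of their groups.

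The 5 spindle checkpoint genes split: BUB1, MAD2L1 and TTK read higher in every PRL-3 array without passing the test, and BUB1B and BUB3 overlapped. TTK (MPS1), the kinase at the head of the checkpoint, read 9.16, 9.36 and 9.47 in control and 9.87, 9.53 and 9.91 with PRL-3. PRL-3 5 was only just above control 3, and the difference was 0.44 ± 0.123 (adjusted p = 0.0747, limma). BUB1, a kinase that recruits checkpoint proteins to the kinetochore, read 10.21, 10.54 and 10.43 in control and 10.77, 10.70 and 10.80 with PRL-3. Here the PRL-3 arrays were tight and the control arrays spread (0.36 ± 0.094, adjusted p = 0.0583, limma). MAD2L1 (MAD2), which holds CDC20 inactive, read 8.33, 8.25 and 8.30 in control and 8.58, 8.42 and 8.75 with PRL-3, a difference of 0.29 ± 0.091 (adjusted p = 0.110, limma).

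All 10 measured genes of the kinetochore and centromere had a difference above 0 (0.04 to 0.71), and none passed. CENPE, a kinesin that carries chromosomes to the spindle equator, had the largest. It read 7.64, 8.05 and 8.26 in control and 8.92, 8.27 and 8.90 with PRL-3. PRL-3 arrays 4 and 6 stood far above control, whereas PRL-3 5 almost equalled control 3, so that the difference of 0.71 ± 0.207 had adjusted p = 0.0833 (limma).

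The NDC80 complex is the part of the kinetochore that holds the microtubule, and its 4 subunits are all members. NUF2 read 8.73, 8.80 and 9.03 in control and 9.47, 9.08 and 9.47 with PRL-3 (0.48 ± 0.127, adjusted p = 0.0595, limma). NDC80 itself read 8.03, 8.28 and 8.62 in control and 8.87, 8.43 and 9.05 with PRL-3 (0.47 ± 0.185, adjusted p = 0.194, limma). In both genes PRL-3 5 was the lowest PRL-3 array and control 1 the lowest control array, and in NDC80 the groups overlapped. SPC25 read 7.995, 8.17 and 8.23 in control and 8.51, 8.25 and 8.64 with PRL-3, with no overlap by a small margin (0.33 ± 0.112, adjusted p = 0.131, limma). SPC24, the fourth subunit, had overlapping groups at low levels, from 5.70 to 6.05 over all arrays. CENPI, of the inner kinetochore, read 7.37, 7.57 and 7.41 in control and 7.88, 7.55 and 7.73 with PRL-3 and overlapped (0.27 ± 0.10, adjusted p = 0.178, limma). The other 4 (CENPF, CENPK, INCENP and CDCA8) overlapped as well.

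Of the 9 kinesins, the motor proteins that slide microtubules or carry cargo along them, KIF20A rose and 8 did not pass. KIF20A (MKLP2), which brings the aurora B complex to the cell equator after anaphase, read 9.65, 9.66 and 9.49 in control and 9.92, 9.91 and 9.88 with PRL-3. The PRL-3 arrays agreed to an SD of 0.018 and all lay above control. The difference was 0.30 ± 0.072 (adjusted p = 0.0399, limma), and it passed in 0 of the 6 fits with an array left out (adjusted p 0.069 to 0.146). KIF11 (Eg5), which pushes the spindle poles apart, read 9.67, 9.90 and 9.89 in control and 10.29, 10.04 and 10.33 with PRL-3. These groups did not overlap either, and the difference was 0.40 ± 0.102 (adjusted p = 0.0534, limma). KIF2C (MCAK), which shortens microtubules at the kinetochore, read 8.73, 8.52 and 8.27 in control and 8.70, 8.89 and 8.76 with PRL-3, with control 1 above PRL-3 4 (0.27 ± 0.118, adjusted p = 0.247, limma). The other 6 kinesins had overlapping groups. KIF4A shares sequence with its close copy KIF4B, and its level is uncertain to that extent.

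The 7 other spindle proteins did not pass. TPX2, which activates AURKA and nucleates microtubules near chromosomes, read 11.53, 11.45 and 11.40 in control and 11.64, 11.61 and 11.65 with PRL-3 (0.17 ± 0.067, adjusted p = 0.185, limma). NUSAP1, which bundles spindle microtubules, read 9.85, 9.96 and 9.65 in control and 10.23, 10.02 and 10.02 with PRL-3 (0.27 ± 0.10, adjusted p = 0.179, limma). In both the groups did not overlap, by margins under 0.1 in log2 level. HMMR, a spindle pole protein that is also a hyaluronan receptor, had the largest difference of the role and a wide spread. It read 9.24, 9.64 and 9.89 in control and 10.20, 9.61 and 10.20 with PRL-3, so that PRL-3 5 fell below control 2 and control 3 (0.41 ± 0.201, adjusted p = 0.314, limma). PRC1, DLGAP5, ASPM and CKAP2 overlapped.

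Of the 5 genes of anaphase and chromatid separation, PTTG1 rose. PTTG1 (securin), which holds separase inactive until anaphase, read 7.66, 7.98 and 8.56 in control and 9.04, 8.72 and 9.31 with PRL-3. The control arrays differed among themselves by nearly as much as the group means, and control 3 lay just below PRL-3 5. The difference was 0.95 ± 0.227 (adjusted p = 0.0419, limma), the largest of the 52 genes. It passed in 2 of the 6 fits with an array left out, those without control 3 and without PRL-3 5, and the adjusted p ran from 0.00759 to 0.165. Its close copies PTTG2 and PTTG3P, whose transcripts could share probes with it, differed by 0.10 (adjusted p = 0.493, limma) and 0.20 (adjusted p = 0.369, limma). Their levels ran from 4.38 to 4.54 and from 5.56 to 6.01 over all arrays. Markers that should be absent read up to 7.37, so both copies may be near background. Sharing of probes was not tested.

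UBE2C, the ubiquitin-conjugating enzyme of the anaphase-promoting complex, read 8.82, 8.46 and 8.38 in control and 8.93, 9.26 and 8.94 with PRL-3. Control 1 and PRL-3 5 were here the highest of their groups, and the groups did not overlap (0.49 ± 0.136, adjusted p = 0.0747, limma). TOP2A, the topoisomerase that untangles sister chromatids, read 10.84, 10.98 and 11.07 in control and 11.33, 11.15 and 11.32 with PRL-3, without overlap (0.30 ± 0.088, adjusted p = 0.0838, limma). CDC20, the activator of the complex in metaphase, read 9.94, 9.69 and 9.40 in control and 9.56, 10.04 and 9.56 with PRL-3. Control 1 and PRL-3 5 stood together above the other 4 arrays, and the difference was 0.04 (95% interval -0.35 to 0.43, adjusted p = 0.940, limma). ESPL1 (separase), the protease that opens cohesin, read 7.51, 7.24 and 7.19 in control and 7.26, 7.56 and 7.27 with PRL-3, with the same 2 arrays highest and a difference of 0.05 (95% interval -0.22 to 0.32, adjusted p = 0.889, limma). Except in control 1 and PRL-3 5, ESPL1 lay below 7.37, which markers that should be absent reached, so it may be near background.

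Of the cytokinesis genes, ECT2, which activates RhoA at the cleavage furrow, read 8.67, 8.82 and 8.96 in control and 9.15, 9.00 and 9.24 with PRL-3. The groups did not overlap (0.32 ± 0.097, adjusted p = 0.0987, limma). ANLN, a scaffold of the contractile ring, had overlapping groups and a difference of 0.0014.

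The arrays of a group differed along 1 main direction, which held 63.9% of the within-group sum of squares over all genes. Control 1 (0.49) and PRL-3 5 (0.53) lay at one end, control 3 (-0.57), PRL-3 6 (-0.31) and PRL-3 4 (-0.22) at the other, and control 2 (0.08) between. The correlations of each gene's within-group deviations with these positions, over 6 arrays, are given as a description. The members lay at both ends: 11 (21.2%) correlated above 0.9, against 12.4% of all genes, and 17 (32.7%) below -0.9, against 9.27%.

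The 11 genes with a correlation above 0.9, which read highest in control 1 and PRL-3 5 within their groups, were FOXM1, CCNF, CDCA3, CDC25B, PLK1, AURKB, INCENP, KIF2C, CDC20, UBE2C and ESPL1. Their mean relative to control was 0.23, 0.01 and -0.24 in the control arrays and 0.01, 0.33 and -0.04 in the PRL-3 arrays, and their median difference was 0.05. The 17 genes with a correlation below -0.9 included PTTG1, NDC80, HMMR, CENPE, NUF2, TTK, TOP2A, ECT2 and SPC25. Their mean was -0.21, 0.01 and 0.20 in the control arrays and 0.40, 0.08 and 0.47 in the PRL-3 arrays, and their median difference was 0.32. Control 3 therefore read above PRL-3 5 in the mean of these genes. The 24 genes between, among them CDK1, NEK2, KIF20A, BUB1, AURKA and CCNB1, had means of -0.04, 0.04 and 0.0003 in control and 0.23, 0.14 and 0.22 with PRL-3. Their median difference was 0.16, and 3 of the 4 genes that passed were among them.

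With array position on this direction as a covariate, 20 members were higher and 1 lower (FOXM1, adjusted p = 0.0437, limma), against 10.8% of all genes higher. The direction was taken from the residuals of these arrays, which lowers the residual spread by construction, and the fit was chosen with earlier results known. In it PTTG1 had adjusted p = 2.92e-05 and CENPE 0.000145 (limma). Without control 1 and PRL-3 5, 8 members were higher, against 4.12% of all genes: CDK1, NEK2, TTK, CENPE, NUF2, KIF11, UBE2C and PTTG1. KIF20A was not among them. What the direction stands for was not tested. The mean of the 10 TF-1 markers moved along it too, at 0.17, 0.0004 and -0.17 in control and -0.02, 0.22 and -0.13 with PRL-3, and 5 of the 10 correlated above 0.9.

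**Figure D4:**
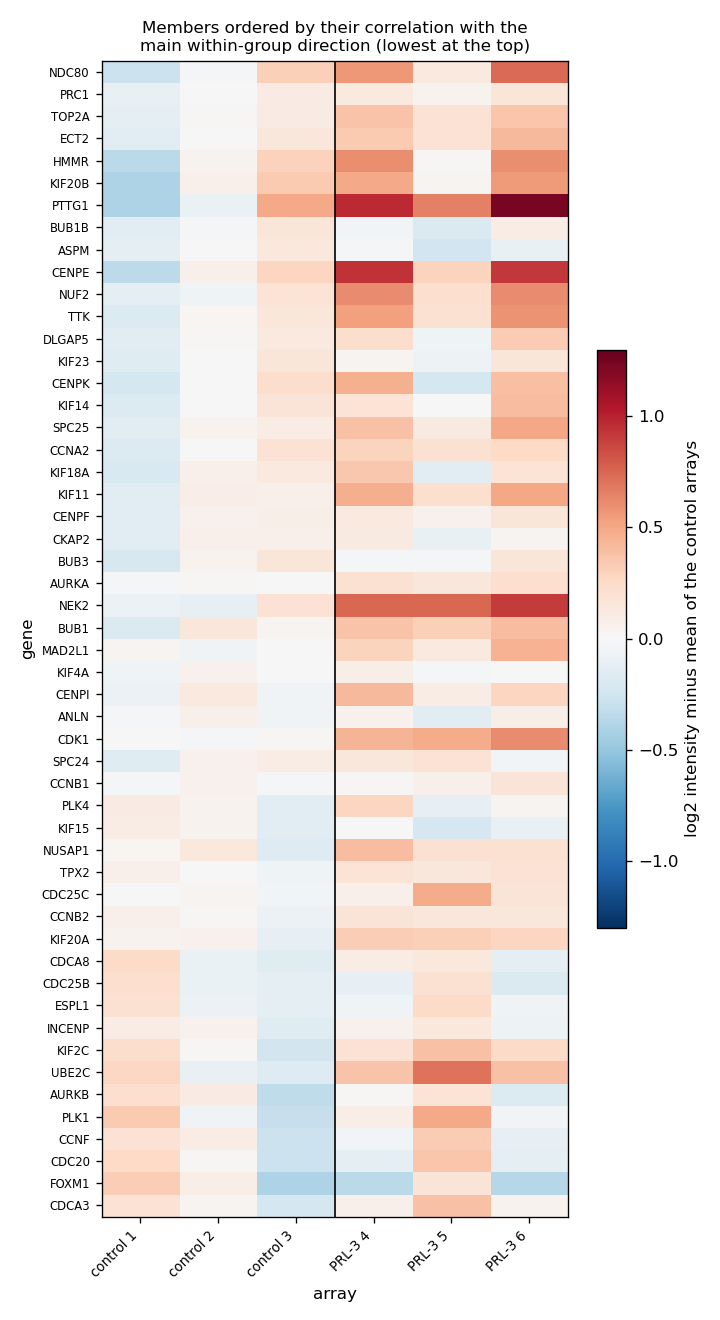
Level of each of the 52 mitosis genes (rows) in each array (columns) as log2 intensity minus the mean of the control arrays, red above and blue below it, with genes ordered by the correlation of their within-group deviations with the main within-group direction. PTTG1 and CENPE, near the top, are palest among the PRL-3 arrays in array 5, FOXM1 and CDC20, near the bottom, are highest within their groups in control 1 and PRL-3 5, and CDK1 and NEK2 are red in all 3 PRL-3 arrays.

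The rest of the mitotic programme was described by a list of other mitosis genes, 87 of them measured. Of these, 11 were higher with PRL-3 (12.6%) and 0 lower, against 4.58% and 3.11% of all genes. A difference above 0 was found in 64 (73.6%, against 45.1% of all genes) and below 0 in 23, and the median difference was 0.11. At an unadjusted p under 0.05, limma had 25 higher (28.7%, against 10.6% of all genes) and 3 lower. Every PRL-3 array read above every control array in 21 (24.1%) and below in 4 (4.6%), against 12.1% and 12.2% of all genes. CEP55, a midbody protein needed to sever the last bridge between daughter cells, read 8.76, 8.92 and 9.00 in control and 9.78, 9.53 and 9.63 with PRL-3 (0.75 ± 0.094, adjusted p = 0.0031, limma). PBK, a mitotic kinase, read 8.39, 8.50 and 8.49 in control and 9.11, 8.91 and 9.03 with PRL-3 (0.56 ± 0.077, adjusted p = 0.00462, limma). Both passed in all 6 fits with an array left out, as CDK1 and NEK2 did.

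MASTL, the Greatwall kinase that restrains the phosphatase opposing CDK1, rose by 0.57 ± 0.111 (adjusted p = 0.020, limma). CKS2, the small subunit that binds CDK1, rose by 0.50 ± 0.115 (adjusted p = 0.0355, limma). SKA1, which helps the NDC80 complex hold moving microtubule ends, rose by 0.46 ± 0.090 (adjusted p = 0.0206, limma), and DEPDC1 by 0.50 ± 0.120 (adjusted p = 0.043, limma). These 4 passed in 1 to 3 of the 6 fits with an array left out.

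Neighbouring stages of the cycle were counted in the same way. Over all genes 4.58% passed as higher and 3.11% as lower, and 1939 were higher and 1765 lower at an unadjusted p under 0.05. Of 50 measured S phase genes, which copy the DNA, 0 were higher and 1 lower (2%) by limma, against 4.58% and 3.11% of all genes. Their median difference was -0.042. At an unadjusted p under 0.05, limma had 4 of the 50 higher (8%, against 10.6% of all genes). It had 9 of the 50 lower, against 1765 of all 18377 genes. The gene that fell was E2F8, a repressor of E2F targets, with 8.37, 8.47 and 8.22 in control and 7.85, 7.83 and 7.73 with PRL-3 (-0.55 ± 0.083, adjusted p = 0.00697, limma). Of 19 measured subunits and regulators of the anaphase-promoting complex, 0 were higher and 1 lower (5.26%) by limma, the subunit gene ANAPC7 (-0.42 ± 0.104, adjusted p = 0.0497). At an unadjusted p under 0.05, limma had 2 of the 19 higher (10.5%) and 4 lower. The array means of the S phase genes relative to control ran from -0.05 to 0.03 over all 6 arrays, where those of the 52 mitosis genes were 0.16 to 0.24 in the PRL-3 arrays. The difference between these lists was not tested.

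**Figure D5:**
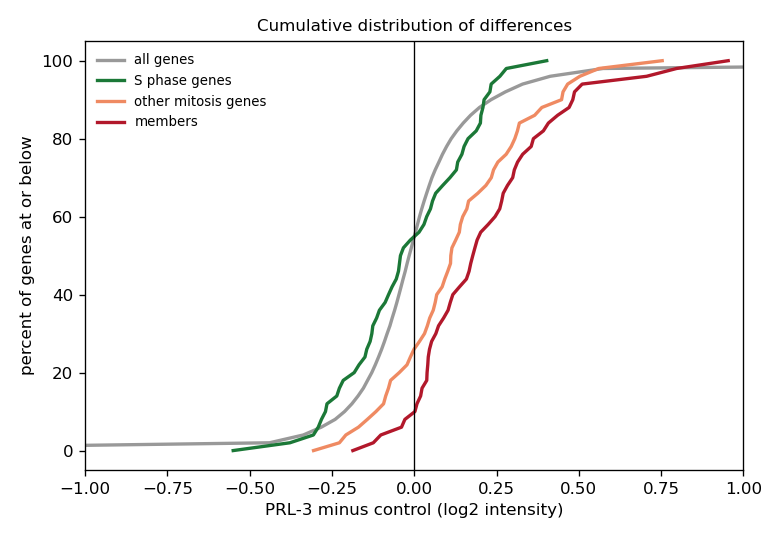
Cumulative share of genes (percent, vertical axis) at or below a given difference between PRL-3 and control (log2 intensity, horizontal axis, shown from -1 to 1) for the 52 mitosis genes, 87 other mitosis genes, 50 S phase genes and all 18377 genes. The curves of the mitosis genes lie to the right (medians 0.18 and 0.11), and those of S phase genes and all genes cross near 0 (medians -0.042 and -0.015).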

How the data were processed

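Total RNA of 6 TF-1 samples was hybridised to whole-transcript arrays. The deposited values are linear intensities of 28869 probe sets. Their summarisation, background correction and normalization are not given in the sources used here. Per the labels, RNA was taken with RNeasy and labelled with Nugen kits. If arrays were scaled to each other, a shift common to most genes is lost, and differences are relative to the bulk of genes. No detection call was given, so low levels have no known floor. Markers that should be absent read up to 7.28 (lymphocyte) and 7.37 (fibroblast and epithelial). Among the members, all values of CDC25C and SPC24 were below 7.37. So were some values of NEK2, CCNF, CDCA3, CDCA8 and ESPL1, and such levels may lie near background.

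Here log2 was taken with no offset. Genes were those of the 19310 probe sets with exactly 1 symbol in the platform annotation, the probe set with the highest mean standing for a gene. The 1752 probe sets with several symbols and the 7807 with none were left out. Of the 19310, 19279 matched a RefSeq gene by Entrez identifier. The fit used lmFit and eBayes of limma 3.58.1 under R 4.3.3, two-sided, with Benjamini-Hochberg adjustment over 18377 genes at 0.05. Precision is limited by having 3 arrays a group. The fit was first checked on simulated data.

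The members and gene lists were chosen with earlier results of these data known. Named with values were members past the threshold, 13 genes set in advance of the fit, the largest difference of each role, and members whose groups did not overlap or whose unadjusted p was under 0.05; the last 2 kinds were added after their values were seen. Of other lists, up to 6 genes past the threshold were named. Alternatives were quantile normalization, a common median, eBayes with trend and robust options, array weights, removal of dim genes, averaged probe sets, an unequal-variance test and leaving out each array. A covariate for the within-group direction and the omission of control 1 with PRL-3 5 were chosen because earlier results had set those arrays apart. Figures were drawn with matplotlib 3.10.9.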

Additional observations from a re-analysis of the deposited data

How the results depend on the processing

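The number of arrays and an unstated normalization limit these results, and adjusted p-values near 0.05 moved with single arrays. The count of members higher was 22 with array weights, 20 with the within-group direction as covariate, 8 without control 1 and PRL-3 5, and 0 by the unequal-variance test, which had 11 members at an unadjusted p under 0.05. The weights were 0.65, 4.70 and 0.36 for controls 1 to 3 and 1.73, 0.41 and 1.27 for PRL-3 arrays 4 to 6. In the weighted fit the control mean thus rested mostly on control 2. Members lower were 1 with array weights and 1 with the covariate, FOXM1 in both. Leaving out 1 array gave 2 to 9 members higher. Other mitosis genes higher were 26, 28 and 0 under weights, covariate and the unequal-variance test (17 at an unadjusted p under 0.05), and 2 to 13 with an array left out; those lower were 6 with weights and 5 with the covariate. Over all 18377 genes, 2122 were higher and 2303 lower with weights, 1976 and 1805 with the covariate, and 7 and 4 by the unequal-variance test. With an array omitted these were 388 (no control 2) to 792 higher and 178 to 747 lower. The cause of these moves was not tested. Quantile normalization kept 3 of the 4 called members and added KIF11 while PTTG1 was lost; the trend fit lost KIF20A. In 16 members the sign turned under some alternative, all with a difference of at most 0.104 in size and adjusted p of at least 0.627 in the main comparison. Of those named with values, AURKB was -0.011 with quantile normalization, -0.13 with array weights and -0.16 to 0.12 with an array left out. CDC20 was -0.086 with array weights and -0.12 to 0.17 with an array left out, and ESPL1 -0.05 to 0.15. Both groups carry numbers of their own (1 to 3 and 4 to 6). No paired analysis was possible because the groups share no replicate number.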

Other observations

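Genes of the machinery that can repress these genes were also measured. Of 9 measured genes of the DREAM complex and p53 arm of cell cycle repression, 0 were higher and 1 lower by limma, with 1 higher and 1 lower at an unadjusted p under 0.05. Every PRL-3 array read below every control array in 3 of the 9 (33.3%) and above in 1 (11.1%), against 12.2% and 12.1% of all genes. Over all genes 4.58% passed as higher and 3.11% as lower. The gene that passed as lower was TFDP1, the DP1 partner of the E2F factors. TFDP1 read 10.76, 10.76 and 10.56 in control and 10.39, 10.32 and 10.25 with PRL-3 (-0.37 ± 0.081, adjusted p = 0.0299, limma). With each array left out in turn it passed in 1 of 6 fits, and the highest adjusted p was 0.134.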
